A study of Mus musculus with 12 samples.

Results

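The genes described are 8 keratins of the epidermis outside the wound response: the basal keratins Krt5, Krt14 and Krt15, the differentiation keratins Krt1, Krt10, Krt2 and Krt77, and Krt24. They were chosen by gene symbol among 24532 genes of 1 table of mouse ear skin, which holds 55 keratin genes. Krt24 was added because its level with MC903 was retained in germ-free skin. Its values are therefore a description and are given without a test. All 8 passed the filter on low counts, as did 16466 genes in all.

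Bulk RNA sequencing covered 12 libraries in 4 groups of 3. The mice, labelled C57BL/6, were kept without specific pathogens (SPF) or without any microbes (germ-free, GF), and their ear skin received MC903 or its vehicle, ethanol. MC903, also called calcipotriol, is an analogue of vitamin D that inflames mouse skin in a way that resembles atopic dermatitis. All groups had the same course of 5 applications, in a wording that leaves the number per day open, and no age or sex of the mice is given in the sources used here. In 3 GF libraries (MC903 4, ethanol 5 and MC903 5) the strain label ends in 7, 8 and 9 in place of 6. The libraries are numbered 1, 2 and 3 in SPF skin and 1, 4 and 5 in GF skin. Whether each library is a different mouse, or whether ethanol and MC903 libraries of the same number share a mouse, is not stated. The spread behind the p-values may be technical.

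Keratins are the intermediate filament proteins of epithelia, and each filament pairs a type I with a type II keratin. Cells of the basal layer make Krt5 (type II) with Krt14 (type I). When they leave that layer they switch to Krt1 (type II) with Krt10 (type I), and in the upper spinous and granular layers Krt2 joins as a further type II partner of Krt10. Injured or inflamed epidermis adds the wound keratins Krt6a, Krt6b, Krt16 and Krt17.

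The type I members lie in the keratin cluster of chromosome 11 and the type II members in that of chromosome 15 (GRCm38.p6, from RefSeq). Krt24 (gene ID 75706, chromosome 11, 99279959 to 99285262), Krt10 (ID 16661, 99385254 to 99397449), Krt15 (ID 16665, 100131759 to 100135949) and Krt14 (ID 16664, 100203162 to 100207510) form the first set. On chromosome 15 lie Krt5 (ID 110308, 101707069 to 101712905), Krt2 (ID 16681, 101810689 to 101818956), Krt1 (ID 16678, 101845426 to 101850786) and Krt77 (ID 406220, 101858731 to 101869706). Krt2, Krt1 and Krt77 are direct neighbours in that order. The noncoding gene Gm32385 overlaps Krt24, and since the use of strand is not given, their reads could not be told apart. Similar coding sequence among keratins can also split reads between family members.

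The 100 bases before the start of transcription are shown for the 6 members with an entry in the RefSeq promoter table, because 4 of them share a start-proximal sequence. All are on the minus strand and are written 5′ to 3′. The start is that of the table's transcript, which for Krt10, Krt14 and Krt2 lies inside the gene bounds given above, so that these stretches do too, and that for Krt77 overlaps the bound by its last base. Capitals mark matches to the motifs searched on both strands.
Krt10 (chr11:99389365-99389464): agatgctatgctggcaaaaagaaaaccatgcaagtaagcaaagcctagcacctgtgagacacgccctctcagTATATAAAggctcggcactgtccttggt
Krt2 (chr15:101818170-101818269): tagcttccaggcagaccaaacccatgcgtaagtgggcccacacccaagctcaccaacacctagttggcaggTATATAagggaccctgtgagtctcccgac
Krt77 (chr15:101869706-101869805): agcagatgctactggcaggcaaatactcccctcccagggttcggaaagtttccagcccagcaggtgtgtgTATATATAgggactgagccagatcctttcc
Krt24 (chr11:99285263-99285362): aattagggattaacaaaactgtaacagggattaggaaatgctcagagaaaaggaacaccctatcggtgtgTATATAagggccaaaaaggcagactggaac
Krt5 (chr15:101712906-101713005): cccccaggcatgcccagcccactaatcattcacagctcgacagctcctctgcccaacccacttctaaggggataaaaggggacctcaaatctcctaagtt
Krt14 (chr11:100206031-100206130): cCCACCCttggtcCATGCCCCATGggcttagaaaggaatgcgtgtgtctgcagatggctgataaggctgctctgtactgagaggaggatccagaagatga

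The letters TATATA were found in the promoters of Krt10, Krt2, Krt77 and Krt24, beginning 28 to 30 bases before the start. This motif was chosen after the sequences were seen. It occurs within 250 bases before the start in 5.25% of 32851 promoters in the table. The TATA box TATAAA was in Krt10 (12.4% of promoters), overlapping TATATA. The letters CATG, any 3 bases, CATG were found in Krt14 (0.338% of promoters), and binding to them was not tested. CCACCC, the CACCC box, was in Krt14 and, upstream of the bases shown, in Krt10 (28.1% of promoters). The AP-1 site TGANTCA (6.75% of promoters), the C/EBP palindrome TTGCGCAA (0.164%) and 2 vitamin D receptor motifs, a direct repeat of AGGTCA (0.00609%) or of AGTTCA (0%) with any 3 bases between, had no match in these windows.

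With MC903 the members split, and the split depended on housing. In SPF skin Krt14 and Krt1 rose 5.69-fold and 7.08-fold while Krt10, Krt2, Krt15 and Krt77 fell. In GF skin Krt14 and Krt1 rose less, by 3.74-fold and 3.31-fold, and Krt10 and Krt2 rose instead of falling, a call that Krt10 loses on library totals (0.16 on the log2 scale, adjusted p = 0.29). Krt2 was at 4715 ± 2260 CPM with MC903 in SPF skin and at 36750 ± 4930 CPM in GF skin (SD, n = 3). CPM is the estimated count relative to a library size scaled by edgeR's TMM method. Lower levels from fewer cells of a type and from less RNA per cell cannot be told apart in whole skin.

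The libraries held from 36358294 to 48225425 estimated counts. The members took 3.9 to 5.19% of the counts in ethanol and SPF MC903 libraries and 7.35 to 8.2% in GF MC903 libraries. Cyp24a1, the vitamin D target that shows exposure to MC903, rose in both housings, from 29.6 to 93.6 CPM in ethanol libraries to 3760 to 10500 CPM with MC903. The mean TMM factor was 1.23 (SPF) and 1.19 (GF) with ethanol and 0.825 (SPF) and 0.831 (GF) with MC903. On library totals the median gene therefore shifts by -0.58 (log2) in the SPF response and by -0.51 in the GF response, against 0.06 or less in size in the other comparisons. Directions below are relative to TMM scaling, and for a member the value on library totals is given where it changes a call.

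**Figure D1:**
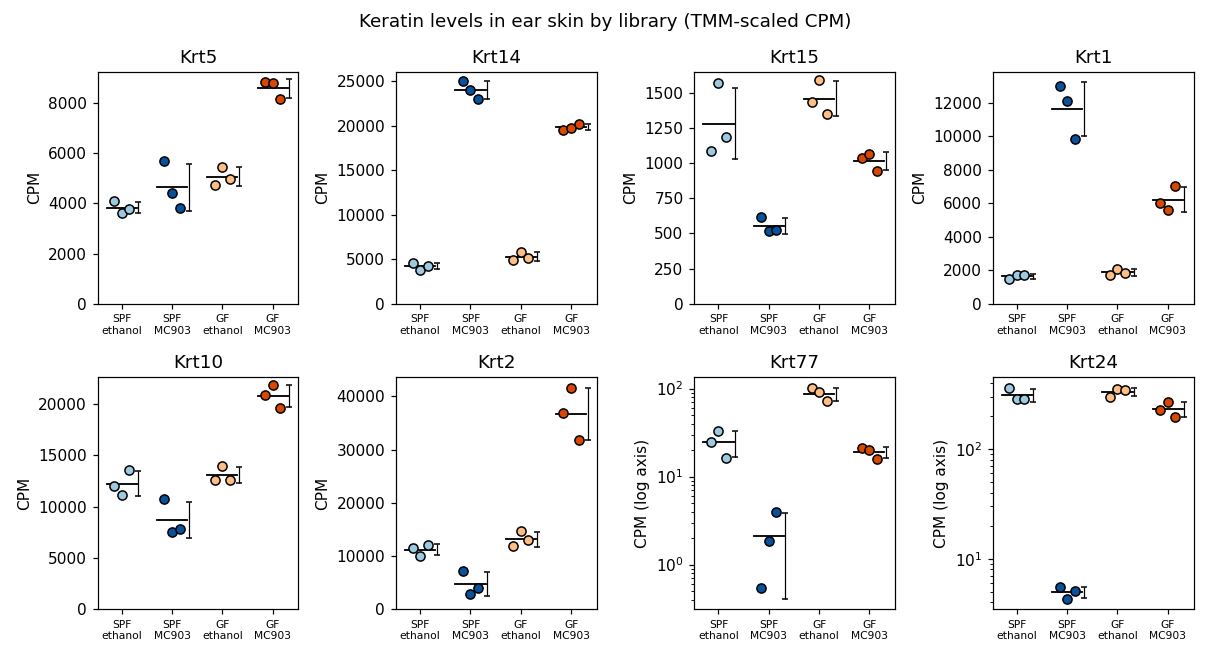
Level of each keratin in CPM (vertical axis, TMM-scaled, log axis for Krt77 and Krt24) by group on the horizontal axis, with a point per library, a line at the mean and a bar of 1 SD. Krt2 and Krt10 are highest in the GF MC903 libraries, and Krt24 is near 5 CPM in the SPF MC903 libraries and at 196.4 CPM or above in all others.

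The basal keratin Krt14 was at 4530, 3838 and 4295 CPM in SPF ethanol libraries 1, 2 and 3 and at 25010, 23980 and 23060 CPM with MC903. In GF skin it was at 4921, 5869 and 5125 CPM with ethanol and at 19540, 19790 and 20260 CPM with MC903. In each housing the MC903 libraries lay far above the ethanol libraries, and the SPF MC903 libraries lay above the GF MC903 libraries. The log2 change was 2.51 (SE 0.12, adjusted p = 1.8e-09) in SPF skin and 1.9 (SE 0.11, adjusted p = 3.4e-08) in GF skin. The GF response was smaller by 0.6 on the log2 scale (SE 0.15, adjusted p = 0.019). With MC903 the housings differed by -0.27 (GF minus SPF, SE 0.11), with an adjusted p of 0.062 (0.035 on library totals) that ran from 0.0021 to 0.13 over the alternatives.

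Krt5, the partner of Krt14, did not follow it in SPF skin and rose less than Krt14 in GF skin. It was at 4087, 3632 and 3782 CPM in SPF ethanol libraries and at 5669, 4396 and 3826 CPM with MC903, where the groups overlap. In GF skin it was at 4722, 5460 and 4974 CPM with ethanol and at 8824, 8780 and 8135 CPM with MC903, without overlap. The SPF change was 0.27 (SE 0.13, adjusted p = 0.075) on TMM scaling and -0.3 (adjusted p = 0.037) on library totals, so its direction depends on the scaling. SPF MC903 3 was the lowest of its group, and without it the SPF change was 0.39 (adjusted p = 0.012). Without SPF MC903 1, the highest, it was 0.1 (adjusted p = 0.4). Of 20 alternatives 3 called a rise of Krt5 in SPF skin and 2 gave a fall. In GF skin Krt5 rose by 0.76 (SE 0.13, adjusted p = 0.00021), and on library totals it had 0.25 (adjusted p = 0.078). The difference of responses, 0.49 (SE 0.18), had an adjusted p of 0.089, with 0.046 on library totals and 0.0089 without SPF MC903 1. With MC903, Krt5 was 1.85-fold higher in GF than in SPF skin (log2 0.89, SE 0.13, adjusted p = 0.00021).

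Krt15, a type I keratin of the basal layer and a marker of hair follicle stem cells, fell in both housings. Its values were 1087, 1565 and 1183 CPM in SPF ethanol libraries and 614.9, 517.2 and 526.3 CPM with MC903. GF libraries held 1433, 1592 and 1346 CPM with ethanol and 1037, 1064 and 941.6 CPM with MC903. No MC903 library reached the ethanol libraries of its housing. The changes were -1.21 (SE 0.13, adjusted p = 2.4e-06) in SPF skin and -0.52 (SE 0.13, adjusted p = 0.0027) in GF skin. Their difference was 0.69 (SE 0.18, adjusted p = 0.02), which became 0.053 without GF ethanol 5. With MC903 Krt15 was 1.83-fold higher in GF skin (adjusted p = 0.00018). Of 8 hair follicle stem cell markers 6 fell in each housing, against 38.8% of all genes in SPF and 35.1% in GF skin. On library totals 7 fell in SPF and 6 in GF skin, against 61.4% and 58.9%. The summed level of these markers went from 400 to 407 down to 250 to 256 CPM in SPF skin. In GF skin it went from 385 to 438 down to 282 to 288 CPM. The largest fall was that of Lgr6, a stem cell receptor, at -3.76 and -2.59. Their part in the Krt15 values was not tested.

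Among the early differentiation keratins, Krt1 rose strongly and its partner Krt10 did not. Krt1 was at 1462, 1726 and 1743 CPM in SPF ethanol libraries and at 12990, 12090 and 9843 CPM with MC903. In GF skin it was at 1695, 2080 and 1856 CPM with ethanol and at 6027, 5577 and 7029 CPM with MC903. Every SPF MC903 library lay above every GF MC903 library, and those lay above all ethanol libraries. The changes were 2.82 (SE 0.14, adjusted p = 3.5e-09) in SPF and 1.73 (SE 0.14, adjusted p = 3e-07) in GF skin, a difference of -1.1 (SE 0.19, adjusted p = 0.0022). With MC903 Krt1 was 1.87-fold lower in GF than in SPF skin (adjusted p = 2e-04).

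Krt10 was the keratin with the highest FPKM in ethanol skin. It was at 12030, 11170 and 13520 CPM in SPF ethanol libraries and at 10730, 7535 and 7852 CPM with MC903. GF libraries held 12600, 13970 and 12580 CPM with ethanol and 20920, 21810 and 19640 CPM with MC903. The MC903 libraries lay below the ethanol libraries in SPF skin and above them in GF skin, without overlap. In SPF skin Krt10 fell, with a change of -0.49 (SE 0.14, adjusted p = 0.0077) and -1.07 on library totals. In GF skin it rose by 0.67 (SE 0.14, adjusted p = 0.0011), whereas on library totals it had 0.16 (adjusted p = 0.29). The difference of responses, 1.16 (SE 0.2, adjusted p = 0.0025), was 1.23 on library totals. With MC903 Krt10 was 2.39-fold higher in GF skin (log2 1.26, SE 0.14, adjusted p = 3.7e-05).

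Krt2, the type II keratin of the upper spinous and granular layers, had the widest difference between housings among the tested members in the difference of responses. SPF libraries held 11420, 10060 and 12070 CPM with ethanol and 7253, 2924 and 3968 CPM with MC903. GF libraries held 11870, 14600 and 12900 CPM with ethanol and 36870, 41620 and 31760 CPM with MC903. Each MC903 group lay outside the ethanol values of its housing, on opposite sides. In SPF skin Krt2 fell with a change of -1.25 (SE 0.26, adjusted p = 0.00092), and in GF skin it rose by 1.49 (SE 0.27, adjusted p = 3e-04). On library totals these were -1.82 and 0.98 (adjusted p = 0.0043). The responses differed by 2.73 (SE 0.37, adjusted p = 0.00062), and with MC903 Krt2 was 7.8-fold higher in GF skin (log2 2.96, SE 0.28, adjusted p = 9.1e-06). SPF MC903 1 held the highest Krt2, Krt10 and Krt5 of its group. Without it the Krt2 change in SPF skin was -1.7 and the difference of responses 3.18.

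Krt77, a type II keratin known in human skin from sweat gland ducts, was the lowest of the 8 and the member that differed most between housings with ethanol. It was at 24.91, 32.8 and 16.41 CPM in SPF ethanol libraries, on 890 to 1591 counts. GF ethanol libraries held 100.5, 90.64 and 71.34 CPM. The GF values lay wholly above the SPF values, 3.54-fold higher (log2 1.82, SE 0.4, adjusted p = 0.0089). With MC903 it was at 0.5492, 1.877 and 3.947 CPM in SPF skin, on 22, 73 and 120 counts, and at 21.12, 20.2 and 15.84 CPM in GF skin. Krt77 fell in both housings, by -3.58 (SE 0.46, adjusted p = 1.5e-05) and -2.2 (SE 0.4, adjusted p = 0.00037). The difference of responses, 1.38 (SE 0.59), had an adjusted p of 0.14. Without SPF MC903 3 that difference was 2.15 (adjusted p = 0.019) and the SPF change -4.35, and without SPF MC903 1 they were 0.91 and -3.1. With MC903 Krt77 was 9.25-fold higher in GF skin (log2 3.21, SE 0.46, adjusted p = 0.00017), with 3.98 without SPF MC903 3 and 2.73 without SPF MC903 1.

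Krt24, a type I keratin described in differentiating human keratinocytes, was at 359.2, 287.8 and 283.1 CPM in SPF ethanol libraries and at 5.492, 4.345 and 5.033 CPM with MC903, on 153 to 220 counts. In GF skin it was at 300, 355.6 and 344.3 CPM with ethanol and at 226.6, 269.3 and 196.4 CPM with MC903. The SPF MC903 libraries lay far below all others, and the GF MC903 libraries lay below the ethanol libraries of both housings. The fitted log2 change was -5.97 in SPF skin and -0.53 in GF skin, and with MC903 the level in GF skin was 46.5-fold that in SPF skin. With ethanol the difference between housings was 0.1 (GF minus SPF). The choice of the gene rests on the MC903 levels as set against ethanol, so none of these values carries a test.

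**Figure D2:**
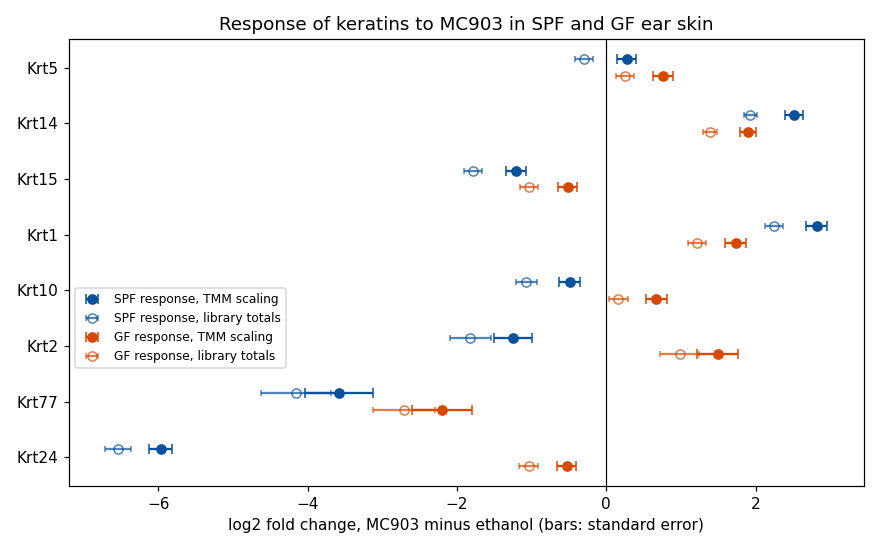
Log2 fold change with MC903 against ethanol (horizontal axis, bars of 1 standard error) of each keratin in SPF and GF skin, on TMM scaling (filled) and on library totals (open). Krt10 and Krt2 lie on opposite sides of 0 in the 2 housings on both scalings, and Krt5 in SPF skin changes side with the scaling.

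Of the 7 members other than Krt24, 2 rose and 4 fell in SPF skin, where 73.8% of all genes tested were called, 35% higher and 38.8% lower. On library totals 2 rose and 5 fell there, against 80.4% called, 19% higher and 61.4% lower. In GF skin 5 rose and 2 fell, where 68.5% of genes were called, 33.4% higher and 35.1% lower. On library totals 3 rose and 2 fell, against 75.9% called, 17% higher and 58.9% lower. The difference of responses was called positive in 3 and negative in 2, against 17% of genes called, 7.76% positive and 9.26% negative. On library totals it was positive in 4 and negative in 2, against 17.1% called, 10% positive and 7.01% negative. With MC903, 5 were higher and 1 lower in GF skin, against 41.7% called, 20.8% higher and 20.9% lower, and on library totals 5 were higher and 2 lower, against 41.9% called, 21.8% higher and 20.1% lower. With ethanol 3 were higher in GF skin, against 22% called, 11.6% higher and 10.3% lower, and on library totals 1 was higher, against 22.1% called, 8.63% higher and 13.4% lower. The 3 were Krt77 and, close to the threshold, Krt5 (0.4, SE 0.13, adjusted p = 0.046) and Krt14 (0.33, SE 0.11, adjusted p = 0.049). On library totals these had 0.34 (adjusted p = 0.066) and 0.27 (adjusted p = 0.051). The Krt5 and Krt14 calls each ended under 10 of 19 alternatives, with adjusted p up to 0.16 and 0.18. Krt15, Krt1, Krt10 and Krt2 had differences of 0.09 to 0.23 there, with adjusted p from 0.3 to 0.68.

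Per length, on the deposited FPKM values, the order of the members changed with treatment and housing. With ethanol in SPF skin Krt10 (7040 ± 751 FPKM, SD, n = 3) led Krt2 (5152 ± 540), Krt14 (3066 ± 307) and Krt5 (2107 ± 162). Krt15 (891.9 ± 160) and Krt1 (807.1 ± 68.5) overlapped, and Krt24 (221 ± 33.5) and Krt77 (17.23 ± 5.51) came last. GF ethanol skin had the same order, with Krt10 at 7235 ± 298 and Krt2 at 5821 ± 483 FPKM, and Krt15 and Krt1 again overlapped. With MC903 in SPF skin Krt14 led at 11700 ± 508 FPKM. Krt1 (3842 ± 517) and Krt10 (3368 ± 714) overlapped there, as did Krt5 (1709 ± 355) and Krt2 (1464 ± 715). With MC903 in GF skin Krt2 (11390 ± 1480 FPKM) and Krt14 (9703 ± 224) overlapped at the top, followed by Krt10 (8050 ± 386), Krt5 (3173 ± 128) and Krt1 (2057 ± 256).

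The members made up 94 to 95.3% of the summed FPKM of the 55 keratin genes in ethanol libraries. With MC903 they made up 57.3 to 61.3% in SPF skin and 76.9 to 81.1% in GF skin. The summed keratin FPKM was 4.08 to 4.85% of all FPKM with ethanol, 5.79 to 7.42% in SPF MC903 and 7.24 to 7.33% in GF MC903 libraries. Krt10 went from 34.4% of keratin FPKM to 8.93% in SPF skin and from 31.8% to 18.2% in GF skin. Krt2 went from 25.2% to 3.8% in SPF skin and held 25.5% and 25.7% in GF skin. Krt14 went from 15% to 31.4% in SPF skin and from 16.3% to 21.9% in GF skin. The wound keratins Krt6a, Krt6b and Krt16, each under 0.4% with ethanol, reached 11.5%, 6.56% and 14.7% in SPF and 3.03%, 2.13% and 10.1% in GF skin.

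**Figure D3:**
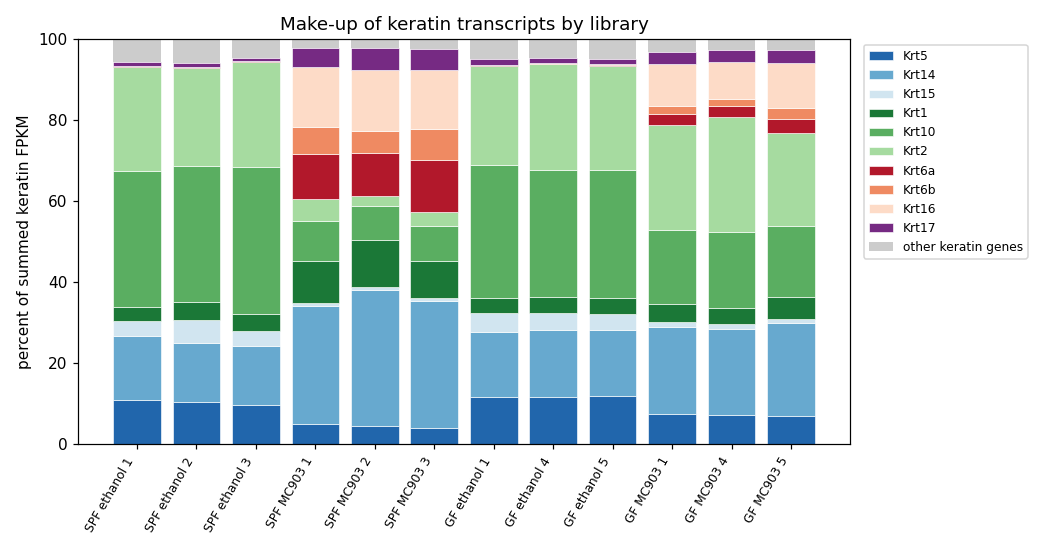
Share of the summed keratin FPKM (vertical axis, percent) by gene in each of the 12 libraries. Krt2 holds 22.8 to 28.5% in the GF MC903 libraries and 2.59 to 5.37% in the SPF MC903 libraries.

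Ratios within a library do not depend on the scaling between libraries. The ratio of the basal pair, Krt14 to Krt5, was 1.36 to 1.5 in ethanol libraries, 5.83 to 7.96 in SPF MC903 and 2.92 to 3.29 in GF MC903 libraries. For the differentiation pair, Krt10 to Krt1, it was 7.57 to 9.62 with ethanol, 0.729 to 0.967 in SPF MC903 and 3.27 to 4.57 in GF MC903 libraries. So in both pairs the partners moved unequally, and the GF MC903 libraries lay between the others without overlap. The ratio of Krt10 to Krt14 (type I, suprabasal to basal) went from 1.89 to 2.49 with ethanol to 0.249 to 0.34 in SPF and 0.769 to 0.874 in GF skin. For the type II genes, Krt1 to Krt5, the ratio moved the other way, from 0.32 to 0.425 with ethanol to 2.05 to 2.46 in SPF and 0.568 to 0.773 in GF skin.

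Within the differentiation keratins, Krt2 to Krt1 was 5.46 to 7.31 with ethanol and 4.23 to 6.99 with MC903 in GF skin, where the groups overlapped. It was 0.226 to 0.523 with MC903 in SPF skin, below all other libraries. The ratio of Krt77 to Krt1 separated all 4 groups, at 0.0134 to 0.027 and 0.0547 to 0.0843 with ethanol in SPF and GF skin and at 5.77e-05 to 0.000569 and 0.00321 to 0.00515 with MC903. Krt15 to Krt14 was 0.231 to 0.393 with ethanol, 0.0208 to 0.0237 with MC903 in SPF and 0.0448 to 0.0518 in GF skin. Krt24 to Krt10 was 0.0259 to 0.037 with ethanol, 0.000634 to 0.000791 with MC903 in SPF and 0.0124 to 0.0153 in GF skin.

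**Figure D4:**
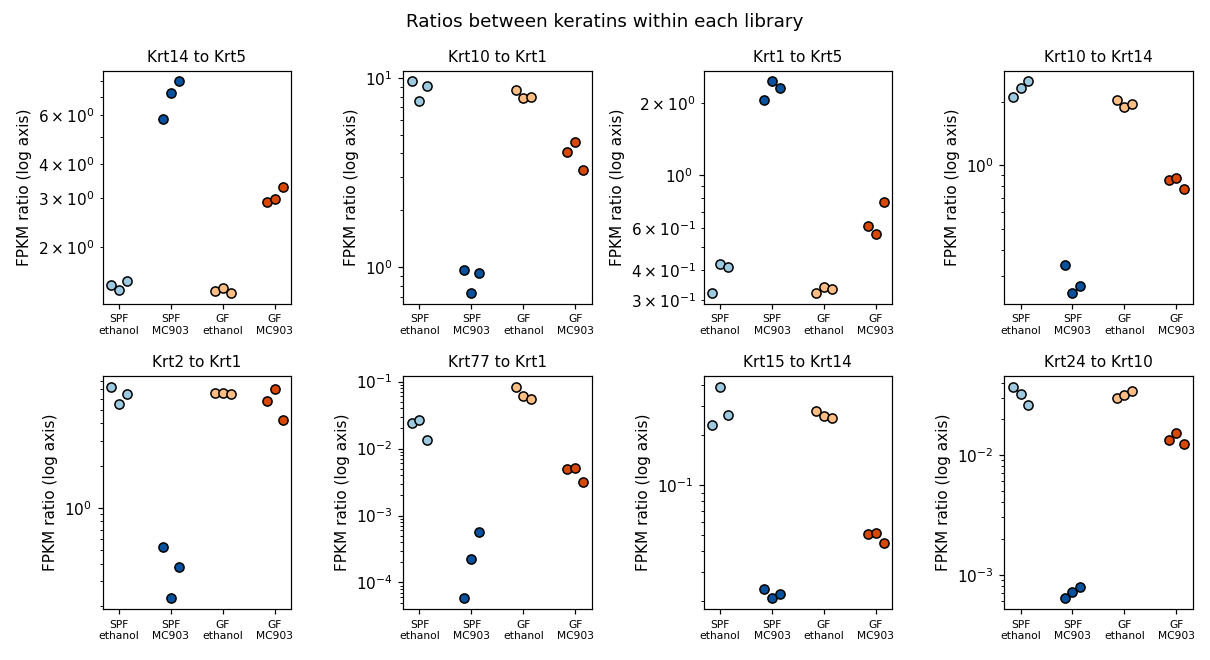
Ratio of FPKM between pairs of keratins (vertical log axis), with a point per library and the 4 groups on the horizontal axis. The SPF MC903 libraries stand apart in each panel, and Krt2 to Krt1 is the panel in which GF MC903 libraries overlap both ethanol groups.

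Across the 12 libraries the log2 CPM values fell into sets, given as a description since the points share treatment and housing. Krt10 and Krt2 had a Pearson r of 0.99 with each other, and Krt14 and Krt1 of 0.98. Within the classical pairs r was 0.54 for Krt5 with Krt14 and -0.16 for Krt1 with Krt10. Krt24 was closest to Krt15 (0.93) and Krt77 (0.89). Among genes that are not members, those most like Krt24 were Slurp2 (0.995), a secreted Ly6 family protein, Il34 (0.99), a cytokine that maintains Langerhans cells, Oplah (0.988), Defb6 (0.984), a beta-defensin, and Pdcd4 (0.982). Slurp2 averaged 60.2 CPM with ethanol and 6.42 CPM with MC903 in SPF skin, and 69.9 and 61.9 CPM in GF skin. Il34 averaged 56.3 and 11.8 CPM in SPF and 68.4 and 54.6 CPM in GF skin. Most like Krt14, the member with the highest mean FPKM, were Eno1 (0.999), Ran, Krt17, Cct6a and Ldha (0.998 each). Eno1 and Ldha are glycolytic enzymes, and Krt17 is a wound keratin.

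Other keratins moved in their own ways. The 4 wound keratins rose in both housings, with a median log2 change of 8.67 in SPF and 6.39 in GF skin, against -0.1 and -0.07 for all genes tested. All 4 rose less in GF skin (median difference -2.14), where 9.26% of all genes had a difference called negative. With ethanol 2 of the 4 were already higher in GF skin, against 11.6% of all genes, Krt16 by 1.81 (adjusted p = 0.0092). With MC903 3 of the 4 were lower in GF than in SPF skin, against 20.9% of all genes. Of 13 other epithelial keratins tested, 5 rose and 4 fell in SPF skin and 3 rose and 2 fell in GF skin. On library totals these were 4 and 6, and 2 and 5. Of all genes tested 35% rose and 38.8% fell in SPF skin, and 33.4% and 35.1% in GF skin. On library totals the shares of all genes were 19% and 61.4%, and 17% and 58.9%. Krt80, of differentiating epithelium, rose by 1.12 in SPF skin and had -0.2 (adjusted p = 0.096; -0.71 and 5.6e-05 on library totals) in GF skin, a difference of -1.32 (adjusted p = 0.00015). Krt78 rose by 1.36 and 1.2. Krt79, of the sebaceous duct, fell in SPF skin with a change of -0.62 and had -0.1 (adjusted p = 0.44; -0.61 and 0.00017 on library totals) in GF skin, a difference of 0.52 (adjusted p = 0.039). Of 12 hair shaft keratins tested, 5 rose and 1 fell in SPF skin and 7 rose and 1 fell in GF skin. On library totals 5 rose and 1 fell in each housing. Several of these genes were near the floor, such as Krt33b at a mean of 0.0137 CPM with ethanol and 0.683 CPM with MC903 in SPF skin. The larger ones varied widely there with MC903, as Krt36 (105 ± 118 CPM) and Krt84 (140 ± 181 CPM, SD). In GF skin with MC903 these 2 were at 473 ± 167 and 604 ± 159 CPM.

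Of all genes tested 35% rose and 38.8% fell in SPF skin, and 33.4% and 35.1% in GF skin. On library totals the shares of all genes were 19% and 61.4%, and 17% and 58.9%. Of 19 genes of the suprabasal and cornified layers tested, 14 rose and 4 fell in SPF skin (median 1.14). In GF skin 13 of them rose and 3 fell (median 1.26), and on library totals the counts were 14 and 4, and 12 and 4. So most of them rose in SPF skin, where Krt10 and Krt2 fell, and most rose in GF skin, as Krt10 and Krt2 did. The difference of responses was called negative in 9 and positive in 3, against 9.26% and 7.76% of all genes. On library totals it was negative in 8 and positive in 3, against 7.01% and 10%. Its median was -0.45, against 0.02 for all genes. The transglutaminase Tgm3 had the most negative difference (-1.85, adjusted p = 0.00016). Its mean rose less in GF skin (108 to 393 CPM) than in SPF skin (80 to 1050 CPM). The 3 positive were Calml3 (1.09, adjusted p = 9.3e-05), the desmosomal cadherin Dsg1a (1.02, adjusted p = 0.017) and Krtdap (0.49, adjusted p = 0.025). Calml3 is a calmodulin-like protein of differentiating epithelium, and Krtdap a keratinocyte differentiation-associated protein. With MC903 the mean of Dsg1a fell in both housings (1130 to 261 CPM in SPF and 1020 to 478 CPM in GF skin). Calml3 went from 208 to 105 CPM in SPF and from 226 to 243 CPM in GF skin, and Krtdap rose in both. Of 13 genes of basal layer adhesion 7 rose and 4 fell in SPF skin and 4 rose and 6 fell in GF skin. On library totals 3 rose and 8 fell in SPF skin. On library totals 2 rose and 9 fell in GF skin. Of 12 genes that anchor keratin filaments, 7 rose and 4 fell in SPF skin and 5 rose and 4 fell in GF skin, against 5 and 5, and 2 and 6, on library totals. The desmosomal cadherin Dsc2 rose most (2.87), and periplakin, Ppl, fell most (-1.4), in SPF skin.

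Of 34 regulators of keratin genes, 14 rose and 14 fell in each housing. Of all genes tested 35% rose and 38.8% fell in SPF skin, and 33.4% and 35.1% in GF skin. On library totals 10 regulators rose and 22 fell in SPF skin, against 19% and 61.4% of all genes. In GF skin 7 rose and 24 fell on library totals, against 17% and 58.9%. Elf3, an epithelial ETS factor, rose most in both (5.9 and 5.03). The difference of responses was called positive in 3 and negative in 4 of the 34 regulators, close to the shares of all genes, 7.76% and 9.26%. The 3 were Gata3 (1.42, adjusted p = 3e-04), Notch1 (0.61, adjusted p = 0.032) and the retinoid X receptor gene Rxra (0.55, adjusted p = 0.0043). Mean levels of all 3 fell with MC903 in both housings, and less in GF skin. Gata3 went from 97.8 to 24.2 CPM in SPF and from 117 to 77.4 CPM in GF skin. Among the 4 negative ones were Ppard (-0.73, adjusted p = 0.00068), Prdm1 (-0.64, adjusted p = 0.0049) and Zfp750 (-0.61, adjusted p = 0.0012). Mean levels of the 3 named here rose with MC903 in both housings, and less in GF skin. Ppard went from 44.2 to 150 CPM in SPF and from 45.5 to 93.1 CPM in GF skin. Vdr, the receptor for MC903, had a difference of 0 (adjusted p = 0.98), and Trp63, the master factor of the basal layer, of 0.19 (adjusted p = 0.22). Cyp24a1 had a difference of responses of -1.16 (adjusted p = 0.099) and was lower by 1.19 on the log2 scale in GF than in SPF skin with MC903 (adjusted p = 0.01).

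Markers of other cell types moved with treatment and, in part, with housing. The summed level of 7 fibroblast markers was 8020 to 11500 CPM with ethanol and 4820 to 6610 CPM with MC903, and that of 7 sebocyte markers 5340 to 7720 and 2140 to 2850 CPM. All 10 proliferation markers rose in both housings, against 35% of all genes in SPF and 33.4% in GF skin. Their median changes were 2.08 and 2.02, and their sum was 305 to 406 CPM with ethanol and 970 to 1170 CPM with MC903. The 4 skeletal muscle markers were higher in GF than in SPF skin under both treatments, against 11.6% of all genes with ethanol and 20.8% with MC903. They summed to 1160 to 1260 CPM in GF against 700 to 814 CPM in SPF skin with ethanol. With MC903 the sums were 694 to 751 against 442 to 474 CPM. Among the 7 sebocyte markers, 4 were higher and 2 lower in GF than in SPF skin with MC903, against 20.8% and 20.9% of all genes. The extremes were Awat2 (2.25) and Soat1 (-1.23), so their sum holds changes both ways. With MC903 the housings overlapped in the sums of fibroblast, sebocyte, adipocyte, leukocyte and melanocyte markers. They did not overlap, beside muscle, in those of cartilage (254 to 273 CPM in SPF and 289 to 291 in GF skin), proliferation (970 to 1120 and 1130 to 1170), hair follicle stem cell (250 to 256 and 282 to 288) and endothelial markers (83.3 to 98 and 79.5 to 81.5). Leukocyte markers summed to 180 to 227 CPM over all libraries, a range that holds changes both ways. In SPF skin 4 of 8 rose and 4 fell, against 35% and 38.8% of all genes. In GF skin 3 rose and 3 fell, against 33.4% and 35.1%. S100a8, a neutrophil and keratinocyte alarmin, rose by 5.32 in SPF and 6.08 in GF skin. The pan-leukocyte gene Ptprc went from a mean of 22 to 7 CPM in SPF skin and had -3.43 in GF skin. Mean levels of the T cell gene Cd3g went from 8.62 to 2.48 CPM in SPF and from 9.26 to 6.91 CPM in GF skin. Its difference of responses, 1.37 (adjusted p = 0.0012), is thus a smaller fall in GF skin. Over all libraries endothelial markers summed to 79.5 to 107, adipocyte markers to 22.5 to 106, cartilage markers to 254 to 391 and melanocyte markers to 89.2 to 111. Each marker list had at least 1 count for every gene in every group. The part of these cells in the keratin values was not tested.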

How the data were processed

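Per the labels' protocols, RNA came from a kit for fibrous tissue, and TruSeq libraries were run on a HiSeq4000. Tools named in the submitters' processing notes are bcl2fastq 2.20.0, Trimmomatic, HISAT2 2.1.0, StringTie 1.3.4d and build mm10. Their order and settings, the annotation and any use of strand were not found in the sources. Each gene has, per the file headers, an FPKM value and an estimated count for every library. The deposited estimated counts are whole numbers and were used as they are. The FPKM values the authors deposited served for levels between genes, ratios and shares.

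Counts were tested with edgeR 4.0.16 (R 4.3.3): filterByExpr by group (minimum count 10, minimum total 15), TMM scaling, 1 quasi-likelihood model of the 12 libraries with a term for each group, and Benjamini-Hochberg adjustment over 16466 genes at 0.05. Adjusted p-values are from this test unless an alternative is named. The 5 comparisons share libraries. SE is the size of the log2 change divided by the square root of F. Gene IDs matched RefSeq (GRCm38.p6) for 24462 of 24532 genes. Counts were simulated for 16223 genes with the same mean in all groups, except that 97 genes changed by 2 and 99 by 1 (log2) in GF MC903. In the GF response 94.8% of genes with a change of 2 and 74.7% of those with a change of 1 were recovered. In the difference of responses these were 92.8% and 53.5%. The simulation held no shift between scalings like that of the real responses, so these rates do not cover it.

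Libraries of a group differed beyond sampling noise (chi-square per degree of freedom 17.2 to 44.9). Alternatives were library totals, RLE size factors, no filter, DESeq2 1.42.0, limma 3.58.1 (voom, and log2(FPKM + 0.1)), only the groups compared, the replicate block and leaving out each library.

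Members and gene lists were chosen with earlier results of these data known. By rule, all members are named, from each list the largest rise and fall among called genes, and the 5 genes with the highest Pearson r to Krt24 and to Krt14 (log2 CPM, prior count 2). Krt78, Krt79, Krt80, Dsg1a, Krtdap, Notch1, Rxra, Zfp750, Vdr and Trp63, and Prdm1 in the difference of responses, were named after their values were seen, and the motif TATATA after the sequences were. Some results for list genes are not reported here.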

Additional observations from a re-analysis of the deposited data

Results flagged for a closer look

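Responses to MC903 that differed between GF and SPF skin are listed by the test of that difference (GF minus SPF, log2, edgeR's quasi-likelihood test). Krt2 (2.73, SE 0.37, adjusted p = 0.00062) and Krt10 (1.16, SE 0.2, adjusted p = 0.0025) had changes of opposite sign in the 2 housings. The rise of Krt10 in GF skin (0.67) was not called on library totals (0.16, adjusted p = 0.29) or with limma on log2(FPKM + 0.1) (0.15, adjusted p = 0.32). Krt1 (-1.1, SE 0.19, adjusted p = 0.0022) and Krt14 (-0.6, SE 0.15, adjusted p = 0.019) rose in both housings and less in GF skin. Krt15 (0.69, SE 0.18, adjusted p = 0.02) fell in both and less in GF skin. Krt24 had a difference of 5.44, which is the pattern it was chosen for and is given without a test.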

How the results depend on the processing

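Krt24 is left out here, since it was chosen for its levels with MC903. For the 7 other members the direction of the log2 changes in the 5 comparisons held under every alternative run, with 1 exception. The exception was Krt5 in SPF skin, at 0.27 with TMM scaling, -0.3 on library totals and -0.32 with limma on log2(FPKM + 0.1). Genes called in the whole table ran from 11536 to 12244 for the SPF response when 1 library was left out, from 10371 to 11390 for the GF response, from 2130 to 2763 for the difference of responses and from 5652 to 6784 between housings with MC903. Between housings with ethanol they ran from 1475 (without GF ethanol 4) to 3981 (without SPF MC903 2), against 3616, with 2354 without SPF ethanol 2 and 2333 without SPF ethanol 3. On library totals 3127 genes rose and 10105 fell in SPF skin, against 5755 and 6395, and 2795 rose and 9701 fell in GF skin, against 5497 and 5777. For the difference of responses the totals gave 1653 higher and 1155 lower, against 1277 and 1525, and for ethanol housing 1421 and 2213, against 1914 and 1702. Same-numbered libraries had correlations of -0.022 to 0.14 in their deviations from the group means, and differently numbered ones of -0.127 to 0.06. With 3 libraries per group these values can neither show nor exclude pairing by number. The main test treated the libraries as unpaired. With the replicate block 11950, 11072 and 2303 genes were called in the SPF response, the GF response and their difference. No call of the 7 members other than Krt24 changed with it. Depth limits only Krt77 with MC903 in SPF skin, at 22 to 120 counts, and counts cover sampling of reads only.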
